A study of Sus scrofa with 6 samples.

Results

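Smooth muscle cells of the vessel wall and pericytes of the capillaries contract with a shared set of proteins. The genes described here encode the smooth muscle actins ACTA2 and ACTG2, the tropomyosins TPM1 and TPM2, which lie along the actin filament, and the smooth muscle myosin heavy chain MYH11. They further encode the myosin regulatory light chain MYL9, the actin-bundling protein TAGLN (transgelin), the actin-binding inhibitor of myosin activity CNN1 (calponin), the intermediate filament protein DES (desmin) and KCNJ8. KCNJ8 forms the pore of an ATP-sensitive potassium channel, which hyperpolarises vascular muscle cells and pericytes when it opens. Members were all probe sets whose single gene symbol in the platform annotation was 1 of these 10. They were 18 of 23999 probe sets on the array and 9 of the 6765 genes with a probe set of their own, and no probe set with the symbol MYH11 was analysed here.

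Backfat of male pigs from Pietrain sires and Landrace dams was measured at 175 days of age on 6 Affymetrix Porcine arrays. The barrows had both testes removed surgically at 7 days, and the boars were their intact full brothers, kept and fed freely alongside them. Each of the 3 barrow and 3 boar arrays held a pool of RNA from 5 animals, so a replicate is a pool, and the p-values below rest on how far pools of 1 group differ. Values are MAS5 signal intensities on a linear scale, 1 per probe set and array, and they are not comparable between probe sets. The study asked what castration changes in subcutaneous fat.

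The arrays had median signals between 162 and 173, and the log2 signals of pools correlated at 0.975 to 0.988. Barrow replicate 2 stood apart from the other barrow pools in these genes, as described below, and results are given with and without it. Dim probe sets were left out of the tests: the 14399 kept were the brightest 60% by their mean log2(signal + 16), which corresponds to a signal of 92.7 or more. Of the 18 member probe sets 16 were tested, with at least 1 for each of the 9 genes. The other 2 were too dim. A second TPM2 probe set on the target of Ssc.20571.2.S1_a_at ran from 37.3 to 67.2 in barrow pools and from 17.4 to 55.9 in boar pools, and a second DES probe set stayed at or under 9.31 in all 6 pools. Backfat lies over muscle, so markers of skeletal muscle were examined too, since skeletal muscle also uses DES, TPM1 and TPM2. Of 24 skeletal muscle genes on the array only TCAP and ACTN2 reached the tested range, at signals of 185 to 263. The summed signal of the 24 was 1123 to 1311 in barrow pools and 968 to 1201 in boar pools. None of 4 cardiac muscle genes on the array was bright enough to be tested.

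No contractile gene differed between barrow and boar fat beyond the threshold, and the genes nearest to it, KCNJ8 and TPM1, were lower in barrows. None of the 16 tested member probe sets passed the test between barrow and boar fat (limma, adjusted p under 0.05), against a background of 1.16% of all tested probe sets, 0.701% higher and 0.458% lower in barrows. With the replicate number as a block 2 members passed, both lower in barrows, where 2.35% of all tested probe sets passed, 1.49% higher and 0.854% lower. At an unadjusted p under 0.05 there were 6 members, all lower in barrows (37.5%), against 6.22% of all tested probe sets lower and 12.2% in either direction. The same 6 had barrow pools that all lay below all boar pools, as 9.76% of all tested probe sets did. The 6 include the dim KCNJ8 probe set Ssc.9488.1.S1_at, whose mean log2 in barrows, 6.61, lay below the lowest mean of any tested probe set, 6.76. It was tested only through its boar pools, so it adds no support to either count. The 6 belong to 3 genes, KCNJ8, TPM1 and ACTA2, and probe sets of 1 gene are not independent of each other. In 1 further member, of ACTG2, all barrow pools lay above all boar pools (8.38% of all tested). The median log2 difference was -0.09 over the 16 members and -0.01 over all tested probe sets, and 11 of 16 lay below 0 (68.8%, against 53.4% of all tested).

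**Figure D1:**
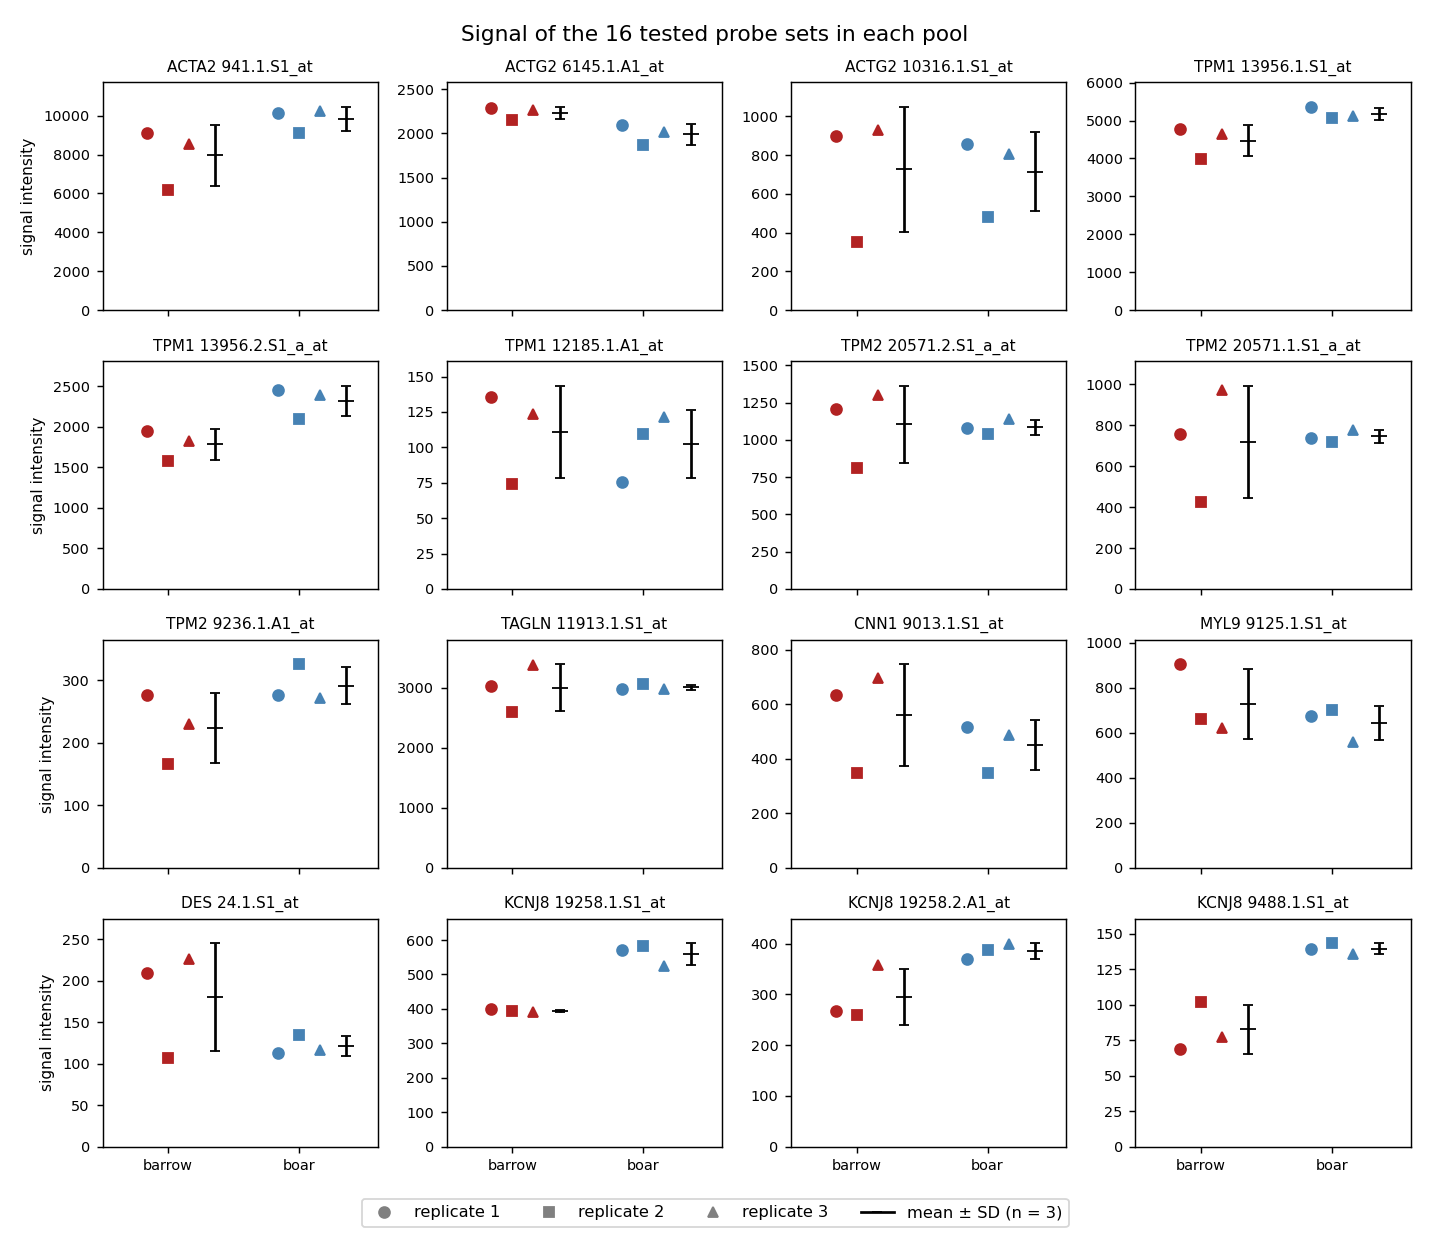
Signal intensity (linear axis from 0) of each tested member probe set in the 3 barrow pools (red, left) and 3 boar pools (blue, right). Marker shapes give the replicate number, and the bars give mean ± SD (n = 3). All 3 KCNJ8 probe sets have barrow pools below boar pools, while barrow replicate 2 (red square) is the lowest pool in 11 of the 16 panels.

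KCNJ8 separated the groups most clearly. Its probe set Ssc.19258.1.S1_at read 398, 393 and 392 in barrow pools 1 to 3, against 572, 582 and 524 in the boar pools. The barrow pools lay close together, and all were well under the lowest boar pool. The signal averaged 394 ± 3.60 in barrows and 559 ± 31.0 in boars (SD, n = 3 each), a log2 difference of -0.49 (95% CI -0.71 to -0.26). This missed the threshold at a limma adjusted p of 0.057 and passed it with the replicate block at 0.048. The difference was as large without barrow replicate 2 (-0.48, limma adjusted p = 0.058).

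The other KCNJ8 probe sets were also lower in barrows. Of these the dim Ssc.9488.1.S1_at was tested only through its boar pools, so its direction adds no support. Ssc.19258.2.A1_at read 267, 260 and 358 in barrow pools, against 369, 387 and 400 in boar pools. Its groups did not overlap, although barrow replicate 3 came close to the lowest boar pool, and the log2 difference was -0.38 (95% CI -0.69 to -0.07, limma adjusted p = 0.30), and -0.30 without barrow replicate 2 (limma adjusted p = 0.37). Ssc.9488.1.S1_at read 69.0, 102 and 76.9 in barrow pools, against 139, 143 and 135 in boar pools, with a log2 difference of -0.67 (95% CI -1.10 to -0.24, limma adjusted p = 0.15), and -0.80 without barrow replicate 2 (limma adjusted p = 0.077). The mean log2 of this dim probe set in barrows, 6.61, lay below the lowest mean of any tested probe set, 6.76, which is a cut by rank and not a background level. As no detection calls were used, its barrow level is not shown to exceed background, and the size of its difference is uncertain. Between pools of the same number, boar exceeded barrow by 0.40 to 0.55 in Ssc.19258.1.S1_at and by 0.15 to 0.55 in Ssc.19258.2.A1_at on the log2 scale. The direction of these differences adds nothing, since it follows from groups that do not overlap.

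Endothelial markers are given beside KCNJ8. Of 11 listed endothelial genes 10 were on the array, and all 10 were bright enough to be tested, each by its brightest tested probe set. Their differences were below 0 in 9, with a median of -0.23, but only TEK passed the test. The brightest differed in size: CDH5 (VE-cadherin) had -0.00092 (limma adjusted p = 0.998), VWF (von Willebrand factor) -0.05 (0.93), the adhesion molecule PECAM1 -0.14 (0.41) and the tight junction protein CLDN5 -0.45 (0.17). TEK, the angiopoietin receptor, read 828, 951 and 937 in barrow pools, against 1303, 1160 and 1323 in boar pools (log2 difference -0.47, 95% CI -0.69 to -0.26, limma adjusted p = 0.047, and 0.068 with no filter on dim probe sets). A dimmer TEK probe set that was also tested did not pass, with or without the replicate block. The summed signal of the endothelial genes was 14726 to 15414 in barrow pools and 16712 to 17338 in boar pools, without overlap. As signals are not comparable between probe sets, such sums are weighted towards the brightest, here PECAM1 at 6840 to 7965. Macrophage genes had the same median, -0.23 over 7 tested of 7 on the array, with sums of 7759 to 9104 in barrow pools and 8155 to 10503 in boar pools. None of the 7 passed the test, and with the replicate block C1QA, a complement component, passed (log2 difference -0.44, limma adjusted p = 0.13, and 0.035 with the block). Of the other bright macrophage genes C1QC had -0.23, MRC1 -0.02 and CD163 0.15 (limma adjusted p from 0.53 to 0.97). The part of these cell types in the KCNJ8 difference was not tested, and in pooled tissue fewer cells of a type and less RNA per cell cannot be told apart.

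TPM1 was next. Its probe set Ssc.13956.2.S1_a_at, whose suffix marks probes shared by transcripts of 1 gene, read 1947, 1573 and 1820 in barrow pools, against 2457, 2099 and 2389 in boar pools. All barrow pools lay below the lowest boar pool, and in both groups replicate 2 was the lowest. The mean was 1780 ± 190 in barrows and 2315 ± 190 in boars (SD, n = 3 each), and the log2 difference was -0.38 (95% CI -0.60 to -0.16). The limma adjusted p was 0.12, and 0.028 with the replicate block, where the differences between same-numbered pools, -0.33, -0.41 and -0.39, lay close together. Without barrow replicate 2 the difference was -0.29 (limma adjusted p = 0.14).

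The 2 other TPM1 probe sets did not repeat that size. Ssc.13956.1.S1_at read 4775, 3998 and 4647 in barrow pools, against 5365, 5062 and 5118 in boar pools. Its groups were also apart, with a log2 difference of -0.22 (95% CI -0.39 to -0.04, limma adjusted p = 0.31, and 0.15 with the block), and -0.14 without barrow replicate 2 (limma adjusted p = 0.36). The dim probe set Ssc.12185.1.A1_at read 136, 73.8 and 123 in barrow pools and 75.4, 109 and 122 in boar pools. Here the groups overlapped and the difference of 0.09 was well within the spread (95% CI -0.47 to 0.64, limma adjusted p = 0.93). Without barrow replicate 2 it was 0.32 (limma adjusted p = 0.57). TPM1 is spliced into muscle and non-muscle forms, and which form each probe set reads is not given in the sources used here.

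ACTA2, the actin most used to mark smooth muscle, read 9104, 6194 and 8564 in barrow pools, against 10128, 9113 and 10257 in boar pools (Ssc.941.1.S1_at). The groups lay apart, but barrow replicate 1 was almost level with boar replicate 2. ACTA2 averaged 7954 ± 1548 in barrows and 9833 ± 626 in boars (SD, n = 3 each), with a log2 difference of -0.32 (95% CI -0.60 to -0.05). The limma adjusted p was 0.32, and 0.091 with the replicate block. Without barrow replicate 2 the difference was -0.15 (limma adjusted p = 0.36).

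ACTG2, the enteric smooth muscle actin that also occurs in vessel walls, gave different patterns in its 2 probe sets. Ssc.6145.1.A1_at read 2283, 2149 and 2261 in barrow pools, against 2100, 1866 and 2012 in boar pools. All barrow pools were above all boar pools, by little (log2 difference 0.16, 95% CI -0.01 to 0.34, limma adjusted p = 0.44, and 0.19 without barrow replicate 2, limma adjusted p = 0.28). Ssc.10316.1.S1_at read 897, 353 and 929 in barrow pools and 859, 480 and 805 in boar pools. Replicate 2 was the low pool in both groups, and the log2 difference was -0.05 (95% CI -0.78 to 0.67, limma adjusted p = 0.97). Without barrow replicate 2 it was 0.39 (limma adjusted p = 0.42). Probe sequences were not used here, so whether a probe set also reads a related actin or tropomyosin was not tested.

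**Figure D2:**
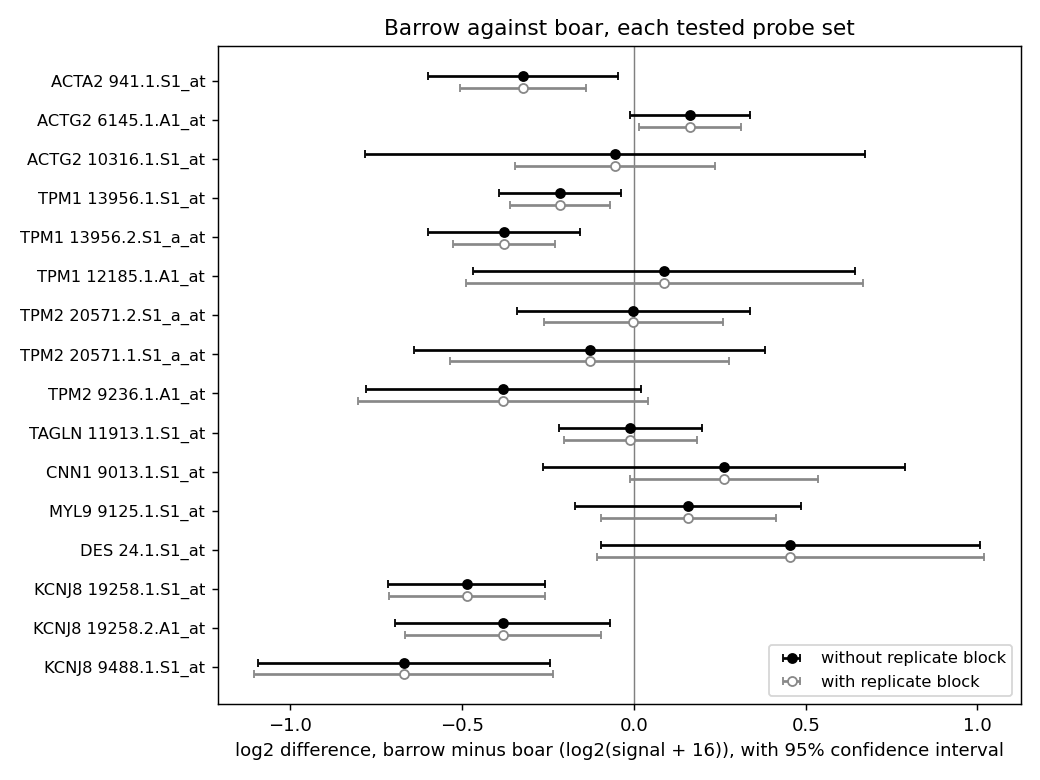
Log2 difference, barrow minus boar on log2(signal + 16), with its 95% confidence interval for each of the 16 tested member probe sets, without (black) and with (open grey) the replicate number as a block. The intervals of the 3 KCNJ8 probe sets, 2 of the 3 TPM1 probe sets and ACTA2 lie below 0 in both fits, and the 5 widest intervals without the block belong to ACTG2 (Ssc.10316.1.S1_at), TPM1 (Ssc.12185.1.A1_at), DES, CNN1 and TPM2 (Ssc.20571.1.S1_a_at), in which barrow replicate 2 is far below its group.

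TPM2, the tropomyosin shared by smooth and slow skeletal muscle, did not separate the groups in any of its 3 tested probe sets. Ssc.20571.2.S1_a_at read 1204, 811 and 1299 in barrow pools and 1077, 1038 and 1139 in boar pools. The barrow pools straddled the boar pools, and the log2 difference was -0.0013 (95% CI -0.34 to 0.34, limma adjusted p = 0.999). Ssc.20571.1.S1_a_at read 757, 425 and 973 in barrow pools and 740, 718 and 777 in boar pools (-0.13, 95% CI -0.64 to 0.38, limma adjusted p = 0.89). Ssc.9236.1.A1_at read 277, 165 and 230 in barrow pools and 277, 325 and 272 in boar pools (-0.38, 95% CI -0.78 to 0.02, limma adjusted p = 0.44). In all 3 the lowest of the 6 pools was barrow replicate 2. Without it the differences were 0.20, 0.20 and -0.19 in the same order (limma adjusted p = 0.30, 0.47 and 0.61), so the first 2 turned in sign.

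The remaining contractile genes overlapped between the groups. TAGLN read 3032, 2601 and 3370 in barrow pools and 2984, 3059 and 2972 in boar pools (log2 difference -0.01, 95% CI -0.22 to 0.20, limma adjusted p = 0.98). Without barrow replicate 2 the TAGLN difference turned to 0.0887 (limma adjusted p = 0.63). MYL9 read 903, 659 and 620 in barrow pools and 674, 700 and 558 in boar pools (0.16, 95% CI -0.17 to 0.49, limma adjusted p = 0.74), and its high pool was barrow replicate 1. The MYL9 difference was 0.22 without barrow replicate 2 (limma adjusted p = 0.58). CNN1 read 635, 347 and 698 in barrow pools and 519, 347 and 488 in boar pools. The replicate 2 pools of CNN1 were equal in both groups, while barrow replicates 1 and 3 exceeded every boar pool. Its log2 difference was 0.26 (95% CI -0.27 to 0.79, limma adjusted p = 0.73), and 0.56 without barrow replicate 2 (limma adjusted p = 0.13).

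DES read 209, 106 and 226 in barrow pools and 113, 135 and 117 in boar pools (Ssc.24.1.S1_at). Barrow replicate 2 was the lowest of the 6 pools and the other barrow pools were the 2 highest. The mean was 180 ± 64.7 in barrows and 121 ± 11.8 in boars (SD, n = 3 each), a log2 difference of 0.46 (95% CI -0.09 to 1.01, limma adjusted p = 0.52). Without barrow replicate 2 it was 0.77 (limma adjusted p = 0.061), and without the replicate 2 pools of both groups, an alternative added after seeing the data, 0.84 (limma adjusted p = 0.044).

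Barrow replicate 2 was thus low across most of the contractile genes. It was the lowest of all 6 pools in 11 of 16 tested member probe sets (68.8%), where 24.7% of all tested probe sets had it lowest. The 11 belong to 7 of the 9 genes, counting a gene by any of its probe sets, which are not independent of each other. By the brightest tested probe set of each gene, barrow replicate 2 was the lowest of 6 pools in 5 of 9 and the lowest barrow pool in 7. Its median log2 difference from the other barrow pools was then -0.30. It was the lowest of the 3 barrow pools in 13 of 16 (81.2%, against 40.1% of all tested), and at least 1.2-fold below both other barrow pools in 8 of 16 (50%, against 13.5%). Set against the mean of barrow replicates 1 and 3, its median log2 difference was -0.40 over the members, while over all tested probe sets the median was -0.01 and the quartiles -0.19 and 0.15. The same median for each boar pool, against the remaining boar pools, lay between -0.02 and 0.05. Barrow replicates 1 and 3 had 0.23 and 0.22, but each was set against a mean that includes the low barrow replicate 2. Being 1 pool against 2, this is a description with no test.

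The shortfall was uneven among the genes. In ACTG2 (Ssc.10316.1.S1_at) the log2 difference of barrow replicate 2 from the other barrow pools was -1.33, at percentile 0.16 of all tested probe sets. Next came TPM2 (Ssc.20571.1.S1_a_at) at -0.99, DES at -0.93 and CNN1 at -0.91. TPM1 (Ssc.12185.1.A1_at) had -0.70, the other TPM2 probe sets -0.62 and -0.57, and ACTA2 -0.51. The remaining TPM1 probe sets had -0.26 and -0.24, TAGLN had -0.30 and MYL9 -0.18, and the second ACTG2 probe set, Ssc.6145.1.A1_at, had -0.08. KCNJ8 had -0.24, -0.01 and 0.40 in its 3 probe sets. In the first of these, Ssc.19258.2.A1_at, barrow replicate 2 was the lowest of the 6 pools, and the last, Ssc.9488.1.S1_at, is the dim probe set whose barrow level is not shown to exceed background. In 4 members, of ACTG2, TPM1, TPM2 and DES, barrow replicate 2 was the lowest pool while both other barrow pools exceeded every boar pool, as 3.69% of all tested probe sets did. In these the barrow pools lay on both sides of the boar pools.

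**Figure D3:**
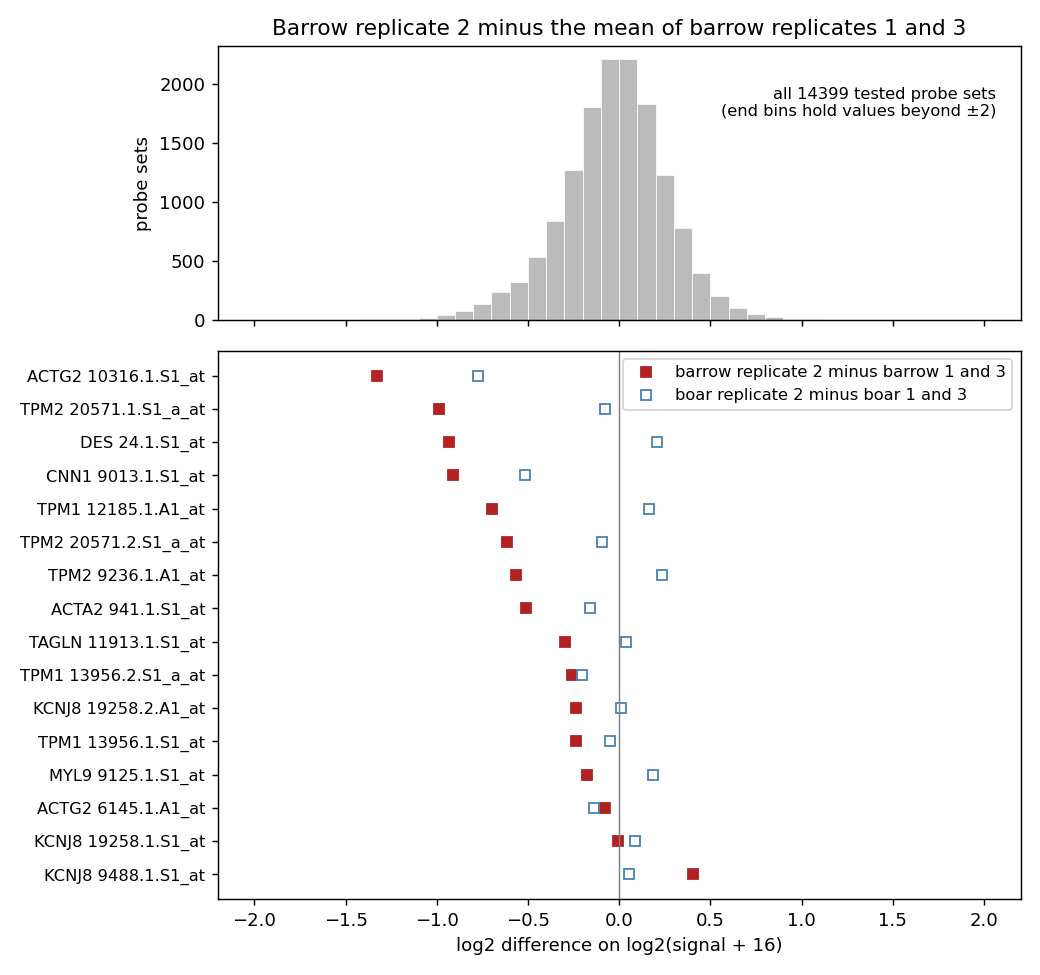
The upper panel counts all tested probe sets by the log2 difference between barrow replicate 2 and the mean of the other barrow pools. The lower panel gives that difference for each member probe set (filled red) beside the same difference for boar replicate 2 (open blue). Of the 16 members 15 lie below 0 in barrow replicate 2, and ACTG2 (Ssc.10316.1.S1_at) and CNN1 are low in boar replicate 2 as well.

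Boar replicate 2 was also the lowest of its group in probe sets of ACTA2, ACTG2, TPM1, TPM2 and CNN1. It was the lowest boar pool in 8 of 16 members, against 36.5% of all tested probe sets. In those 8 barrow replicate 2 was the lowest barrow pool too, so replicate 2 was lowest in both groups in 8 of 16, against 17.5% of all tested. The largest such dips were in ACTG2 (Ssc.10316.1.S1_at), at -0.77 against the other boar pools, and CNN1, at -0.52. Over all 16 members the median for boar replicate 2 was -0.02. In DES and TPM2 (Ssc.9236.1.A1_at) it stood above the other boar pools, by 0.21 and 0.23.

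Several other readouts stood apart in the same pool. Fibroblast genes were low in barrow replicate 2, which was the lowest barrow pool in 6 of 8, with a median of -0.38 against the other barrow pools. Each gene was taken by its brightest tested probe set. Taken the same way, the 9 member genes had a median of -0.30, so the fibroblast list was the lower of the 2. The summed fibroblast signal was 48929, 37480 and 51732 in barrow pools 1 to 3 and 46194, 44753 and 51519 in boar pools. Adipocyte genes had a median of 0.11 in barrow replicate 2, which was the lowest barrow pool in 1 of 8, and endothelial genes 0.05. The gland protein PIP read 207, 1508 and 219 in barrow pools, against 13.7, 3.83 and 29.9 in boar pools (log2 difference 3.84, limma adjusted p = 0.018, and 0.052 with no filter). Its mean log2 in boars, 4.91, lay far below the lowest mean of any tested probe set, 6.76. PIP was thus tested only through its high barrow pools, and the size of its difference is uncertain. PIP was 1 of only 2 epithelial and gland genes, of 9 on the array, bright enough to be tested, and the other, the keratin KRT8, had -0.20 (limma adjusted p = 0.77). Of 8 tested adipocyte genes LEP (leptin) passed the test, higher in barrows at 1559, 1690 and 1430, against 946, 1048 and 1115 in boars (limma adjusted p = 0.021). Of 2 tested nerve and Schwann cell genes UCHL1 passed, at 226, 403 and 220 in barrow pools, against 70.7, 133 and 83.5 in boar pools (limma adjusted p = 0.035, and 0.080 with no filter), and it was highest in barrow replicate 2. The mean log2 of UCHL1 in boars, 6.76, was level with the lowest mean of any tested probe set. S100B, the other nerve gene, had -0.03 (limma adjusted p = 0.96). The 4 brightest adipocyte genes, ADIPOQ, FABP4, LPL and DGAT2, had differences of -0.11 to 0.11 (limma adjusted p from 0.58 to 0.91). None of the 8 fibroblast genes passed, and with the replicate block the matrix proteins DPT, lower in barrows (-0.32, limma adjusted p = 0.041), and FBLN1, higher (0.50, limma adjusted p = 0.047), passed. The other bright fibroblast genes, DCN, POSTN and LUM, had -0.03, -0.23 and 0.10 (limma adjusted p from 0.41 to 0.93). The log2 ratio of 3' to 5' signal, an RNA quality measure, was 2.04, 1.85 and 2.13 for actin in barrow pools and between 1.99 and 2.13 in boar pools, and for GAPDH 1.44, 1.09 and 1.32 in barrow pools and 1.36, 1.34 and 1.25 in boar pools. Both ratios were lowest in barrow replicate 2. The part of tissue makeup and RNA quality in the low contractile signals was not tested.

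The wider contractile and pericyte program was examined through 50 other listed genes, of which 33 were on the array and 30 were tested, each by its brightest tested probe set. None passed the test in either direction (2 had an unadjusted p under 0.05), 13 had differences above 0, and the median was -0.02 against -0.01 over all tested probe sets. Barrow replicate 2 was the lowest barrow pool in 24 of these 30 and the lowest of 6 in 18. Its median against the other barrow pools was -0.22, where the 9 member genes taken the same way had -0.30. The list was chosen with earlier results of these data known.

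Of the pericyte genes other than KCNJ8, ANPEP came nearest to the threshold. ANPEP, an aminopeptidase of pericytes that is also found on other stromal and myeloid cells, read 1287, 1083 and 1373 in barrow pools, against 1944, 1581 and 1846 in boar pools. Its log2 difference of -0.52 missed the threshold (95% CI -0.76 to -0.27, limma adjusted p = 0.063) and passed it with the replicate block (limma adjusted p = 0.013). PDGFRB, the receptor that recruits pericytes to vessels, had -0.17 (limma adjusted p = 0.57). RGS5, a regulator of G protein signalling abundant in pericytes, had 0.18 (limma adjusted p = 0.59), with 2469, 2565 and 2751 in barrow pools and 2169, 2009 and 2767 in boar pools. Whether KCNJ8 and ANPEP differ in response from PDGFRB and RGS5 was not tested.

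Among other smooth muscle genes the closest to the threshold was FHL1, a LIM protein of muscle that adipose tissue also expresses, with a log2 difference of 0.24 (limma adjusted p = 0.29). KCNMB1, the smooth muscle subunit of the large calcium-activated potassium channel, read 245, 151 and 272 in barrow pools and 184, 98.0 and 171 in boar pools. It repeated the low replicate 2 of both groups seen in CNN1, with a difference of 0.52 (95% CI -0.05 to 1.09, limma adjusted p = 0.46). CALD1 (caldesmon), SMTN (smoothelin), MYLK (the kinase of the myosin light chain) and TPM3 had 0.05, -0.02, -0.13 and -0.11 (limma adjusted p from 0.60 to 0.97). MYOCD, the transcriptional coactivator of smooth muscle genes, was too dim to be tested, at 83.1 to 116 in barrow pools and 78.1 to 98.9 in boar pools.

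**Figure D4:**
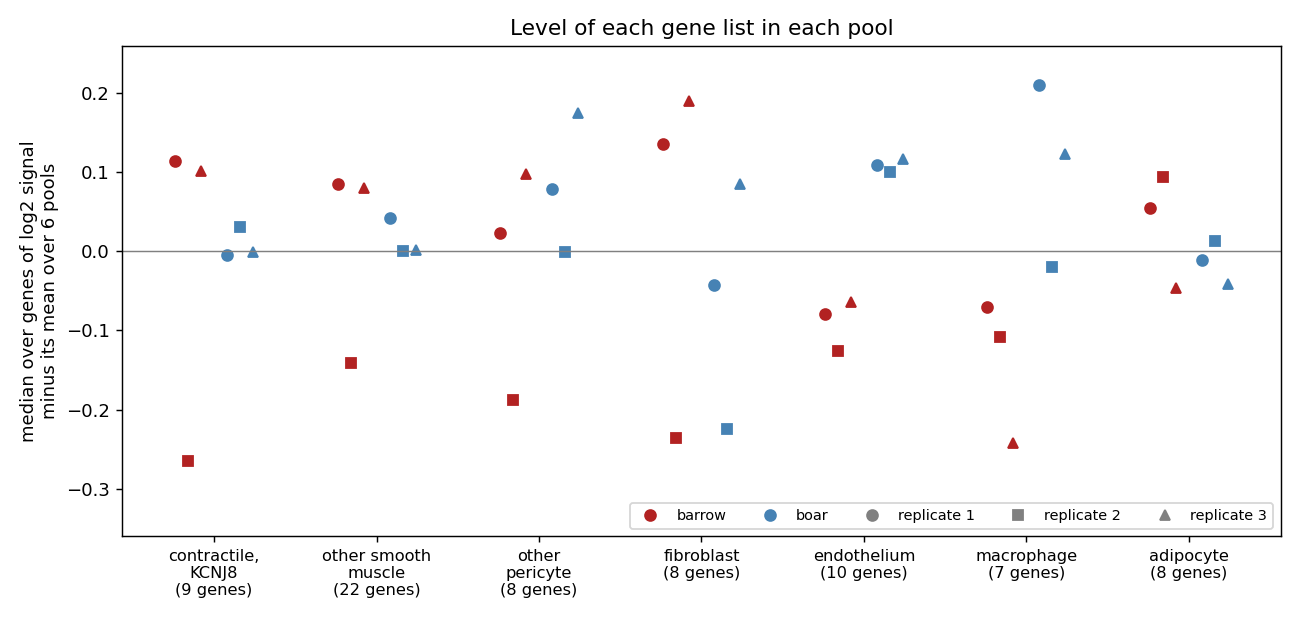
For each gene list and pool, the median over its tested genes of the log2 signal minus that gene's mean over the 6 pools. Barrow pools are red and to the left, boar pools blue and to the right, and shapes give the replicate number. Barrow replicate 2 is the lowest pool of the contractile, other smooth muscle, other pericyte and, narrowly, endothelial and fibroblast lists. In the endothelial list its median gene-by-gene difference from the other barrow pools is 0.05, so that list is not low in this pool by both measures. The endothelial and macrophage medians are lower in all barrow pools than in all boar pools.

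Genes outside the set were ranked by how closely their 6 values followed each member, as the root mean square difference between log2 values centred on the mean of the 6 pools. The search covered 5347 genes, so close matches can arise among many noisy profiles, and the ranking is a description. KCNJ8 (Ssc.19258.1.S1_at) was closest to B3GALNT1, PLPP1 and TYROBP, at 0.05 to 0.06. Their log2 differences between barrow and boar were -0.45, -0.42 and -0.39. That they were lower in barrows follows from their choice by likeness to KCNJ8, so it adds no support. DES was closest to ATP10A at 0.06, with PPP4R1L and THY1 next at 0.14 each. THY1, a surface protein of fibroblasts and progenitors, read 4057, 2671 and 4213 in barrow pools and 2826, 2698 and 2757 in boar pools. CNN1 was closest to CRABP2, C1QTNF6 and RETREG1, at 0.10 to 0.11, and TPM2 to POC5, PEAR1 and MAPK12, at 0.04 to 0.06. ACTA2 was closest to MGEA5, STAT6 and HDGF, all at 0.05, and TPM1 to LUC7L3, SSB and RHOU, at 0.04 each. TAGLN was closest to CDH13, KIAA1671 and C1D, at 0.02 to 0.03, ACTG2 to PON2, PKNOX2 and RXRB, at 0.03 to 0.04, and MYL9 to SHARPIN, VPS26B and PKM, at 0.04 to 0.07. Among the members themselves the closest pairs were TPM1 with ACTA2 at 0.116, TPM2 with TAGLN at 0.118 and TPM1 with TAGLN at 0.123. TAGLN varied by only 0.109 about its own mean (root mean square), so the closeness of its pairs does not show a shared pattern. The farthest were DES and KCNJ8, at 0.57.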

How the data were processed

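The deposited intensity values are MAS5 signals, per the submitters' processing notes, with no version or settings given in the sources used here. After trimming 2% at each end, the mean signal was 499.88 to 499.89 on each array, so the authors' values were already scaled to a common level. The table held 24123 probe sets, of which 124 controls were left out. Of the rest 10069 had 1 gene symbol, 198 several and 13732 none. All 18 member symbols were found again through the gene identifier in the RefSeq table (Sscrofa11.1). No coordinates or detection calls were used.

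Signals kept this scaling and were compared as log2(signal + 16), a pseudocount that compresses differences between low signals. The linear models of limma 3.58.1 (R 4.3.3) used a prior variance that follows intensity, and 2-sided p-values were adjusted by the Benjamini-Hochberg method across 14399 probe sets. The number of arrays limits the precision. The code was tested on simulated data. Members and lists were chosen with earlier results of these data known. Named genes were every member, other smooth muscle and pericyte genes with the smallest p or fixed by name, the brightest markers (up to 4) of each other cell type, named here where tested, and the 3 genes most like each member. TEK and LEP, each the only gene of its list past the threshold, and FBLN1, past it with the block, were named after their values were seen.

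Barrow and boar pools carry replicate numbers 1 to 3. Deviations from the group means correlated at 0.12, 0.17 and 0.26 between same-numbered pools, each over 0.1, and the fits with a block therefore treated the numbers as pairing them. These correlations are weak and come from the same data, and the labels do not say what a number shares, so the pairing is not established. The fit without the block is the main one. Alternatives changed the scaling, pseudocount, filter, variance prior, array weights, block and the pools entered.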

Additional observations from a re-analysis of the deposited data

How the results depend on the processing

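The count of member probe sets past the threshold was 0 of 16 in barrow against boar. It was 2 with the replicate block (KCNJ8 and TPM1, both lower in barrows) and 1 of 12 in the upper 40% (KCNJ8, lower). With array weights it was 2, both of KCNJ8 and lower in barrows. The second of these is the dim Ssc.9488.1.S1_at, which was tested only through its boar pools and adds no support. Without both pools numbered 2, an alternative added after seeing the data, the count was 2 (TPM1 lower, DES higher). It was 0 under quantile normalization, median centring, pseudocounts 1 and 64, no filter, no intensity trend and without each single pool, where it ran from 0 to 0. The count over all tested probe sets, 167, was 338 with the replicate block, 425 with array weights, 96 without a filter, 32 without the intensity trend and 532 without both pools numbered 2. Leaving out 1 pool gave 24 to 291, with 24 without boar replicate 1, 31 without boar replicate 3, 53 and 66 without barrow replicates 1 and 3, and 291 without barrow replicate 2. The median of barrow replicate 2 against the other barrow pools, -0.40, was -0.28 in the upper 40%, where 4 member probe sets are no longer tested. The block changed no other member call than those of KCNJ8 and TPM1. Of 252 member differences under the alternatives 223 kept their direction and side of the threshold, 7 passed it and 22 changed sign, in 6 probe sets. With array weights those signs were ACTG2 (Ssc.10316.1.S1_at) 0.12, TAGLN 0.0345, and TPM2 0.0224 and 0.10. Median centring gave TAGLN 0.0030 and TPM2 0.0117, quantile normalization TPM2 0.0116, and without both pools numbered 2 ACTG2 had 0.13, TAGLN 0.10 and TPM2 0.17 and 0.17. Leaving out 1 pool gave -0.31 to 0.39 for ACTG2, -0.0972 to 0.0887 for TAGLN, -0.38 to 0.20 and -0.13 to 0.20 for TPM2, -0.0862 to 0.32 for TPM1 (Ssc.12185.1.A1_at) and -0.00447 to 0.26 for MYL9. The cause was not tested.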
